A study of Mus musculus with 8 samples.

Results

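The unfolded protein response and the chaperones of the endoplasmic reticulum (ER) were examined as 37 genes in the epididymal white fat of mice fed a high-fat diet. The members were matched by exact symbol among the 31854 rows of the deposited count table. Each of the 37 had a single row, and all 37 passed the filter on low counts that left 15667 tested rows. The lowest count of a member in any library was 85, for Chac1. The mice carried either a knock-in allele of PPAR-gamma that puts an alanine in place of a serine of the receptor (S273A, 4 libraries, replicates 2, 3, 4 and 6) or the wild-type receptor (WT, 4 libraries, replicates 1, 2, 3 and 5), and both genotypes received the high-fat diet. PPAR-gamma, a nuclear receptor, controls the formation of fat cells. The alanine cannot take the phosphate that kinases such as Cdk5 place on the serine. The titles of the S273A libraries carry the code AA, from which no number of alleles was inferred. The labels give neither the age of the mice nor a stated number of alleles replaced. They also do not say whether the libraries of a genotype are separate mice, so the p-values reflect library-to-library spread that could be technical. Transcript levels do not check the genotype, since the allele alters a codon only.

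Secreted and membrane proteins fold in the ER, and a surplus of unfolded chains is sensed by 3 membrane proteins that work in parallel. IRE1 (Ern1) splices the messenger RNA of Xbp1, ATF6 is cut in the Golgi to release a transcription factor, and PERK (Eif2ak3) phosphorylates the initiation factor eIF2 alpha, which slows translation and favours that of Atf4. ATF6 and spliced XBP1 drive genes for chaperones, disulfide isomerases and ER-associated degradation, whereas ATF4 drives genes for amino acid synthesis, redox balance and, through Ddit3, cell death. Adipocytes secrete adipokines, and plasma cells, which secrete antibodies, depend on XBP1. The counts are totals per gene, so splicing of Xbp1, cutting of ATF6 and phosphorylation of eIF2 alpha were not measured.

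The members include 15 ATF6/XBP1 chaperone genes and 8 ATF4 targets. Their promoters were searched for the elements of these factors because the chaperone genes varied together across libraries, as described further on. RefSeq windows on GRCm38.p6, from 250 bases before to 50 bases after each annotated start, were found for 33 of the 37 members. Atf6, Ppp1r15b, Hyou1 and Manf had none. The ER stress response element ERSE was searched on both strands as CCAAT and CCACG with 9 bases of any kind between them. It was present in 7 of the 13 chaperone genes with a window (53.8%) and in 0 of the 8 ATF4 targets. Over all genes with a window it was present in 37 of 27025 (0.137%), and over all windows in 39 of 32851 (0.119%). Both lists hold genes named as targets of these factors, so shares of motifs describe the lists and test nothing in these libraries. Of the 37 genes with an ERSE in the whole set, 9 were members, which is also 9 of the 33 members with a window. The exact ERSE stretches are shown because they mark which members held an exact match in the window. Variant forms and elements outside the window were not searched, so a member without a match may still carry the element. Capitals mark the fixed letters of the motif, and each stretch is written 5′ to 3′ on the strand on which the motif reads forward.
Hspa5 (chr2:34772017-34772051, plus strand): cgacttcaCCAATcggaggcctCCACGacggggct
Hsp90b1 upstream copy (chr10:86705630-86705664, minus strand): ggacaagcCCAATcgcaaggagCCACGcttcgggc
Hsp90b1 downstream copy (chr10:86705525-86705559, plus strand): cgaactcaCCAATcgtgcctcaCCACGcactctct
Calr (chr8:84847067-84847101, plus strand): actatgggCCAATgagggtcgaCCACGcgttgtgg
Canx (chr11:50325792-50325826, minus strand): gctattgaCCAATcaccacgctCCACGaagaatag
Pdia6 (chr12:17266483-17266517, plus strand): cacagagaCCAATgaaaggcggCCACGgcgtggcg
Dnajc3 (chr14:118937819-118937853, plus strand): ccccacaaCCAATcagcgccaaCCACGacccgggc
Creld2 (chr15:88819512-88819546, minus strand): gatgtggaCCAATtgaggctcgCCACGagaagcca
Syvn1 (chr19:6046524-6046558, plus strand): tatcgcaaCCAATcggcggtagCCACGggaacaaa
Ero1lb (chr13:12565674-12565708, minus strand): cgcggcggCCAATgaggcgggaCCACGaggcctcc

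The Hspa5 element began 65 bases before the start, and the Hsp90b1 promoter held 2 copies, 1 on each strand. The shorter ERSE-II, searched on both strands as ATTGG and CCACG with 1 base of any kind between them, was present in Dnajb11 and Herpud1, and in 0.0365% of all windows. The XBP1 element UPRE, searched on both strands as TGACGTGG, had no exact match in a member window and was present in 0.676% of all windows. The core of the ATF4 element CARE was searched on both strands as TGATGNAA. It was present in 3 of the 8 ATF4 targets (37.5%), Trib3, Asns and Chac1, and in 0 of the 13 chaperone genes with a window. Over all genes with a window the share was 4.51%, and over all windows 3.97%. Herpud1 held both an ERSE-II and a CARE core. No match of 1 motif overlapped a match of another in these genes. The ERSE-II and CARE matches are shown in the same way, since they set Herpud1 and the ATF4 targets beside the chaperone genes.
Dnajb11 ERSE-II (chr16:22857844-22857870, plus strand): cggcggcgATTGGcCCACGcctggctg
Herpud1 ERSE-II (chr8:94386369-94386395, plus strand): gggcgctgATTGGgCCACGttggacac
Herpud1 CARE (chr8:94386309-94386332, minus strand): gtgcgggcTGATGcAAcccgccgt
Trib3 CARE (chr2:152344031-152344054, plus strand): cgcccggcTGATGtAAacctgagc
Asns CARE (chr6:7693217-7693240, minus strand): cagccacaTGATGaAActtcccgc
Chac1 CARE (chr2:119351041-119351064, minus strand): ggcaggagTGATGcAAcggcaggg

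The window of Hspa5, which encodes the main ER chaperone BiP, and that of Chac1, which encodes a glutathione-degrading enzyme induced by ATF4, are shown whole as examples of the different kinds of promoter. Both are on the plus strand and read in the direction of the gene, and capitals mark the fixed letters of the ERSE in the first and of the CARE, which reads forward on the other strand, in the second.
Hspa5 (chr2:34771840-34772139): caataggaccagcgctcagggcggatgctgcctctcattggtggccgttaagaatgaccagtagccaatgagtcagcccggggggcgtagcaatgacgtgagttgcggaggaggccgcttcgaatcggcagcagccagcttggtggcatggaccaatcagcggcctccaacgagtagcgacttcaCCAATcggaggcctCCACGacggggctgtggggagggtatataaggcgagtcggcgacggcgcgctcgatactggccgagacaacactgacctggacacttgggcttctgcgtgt
Chac1 (chr2:119350992-119351291): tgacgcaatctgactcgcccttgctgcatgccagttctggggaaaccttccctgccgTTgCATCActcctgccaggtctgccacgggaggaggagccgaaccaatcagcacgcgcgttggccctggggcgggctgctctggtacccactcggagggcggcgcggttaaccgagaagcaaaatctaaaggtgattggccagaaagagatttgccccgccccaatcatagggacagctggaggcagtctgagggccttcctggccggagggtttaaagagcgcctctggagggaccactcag

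**Figure D1:**
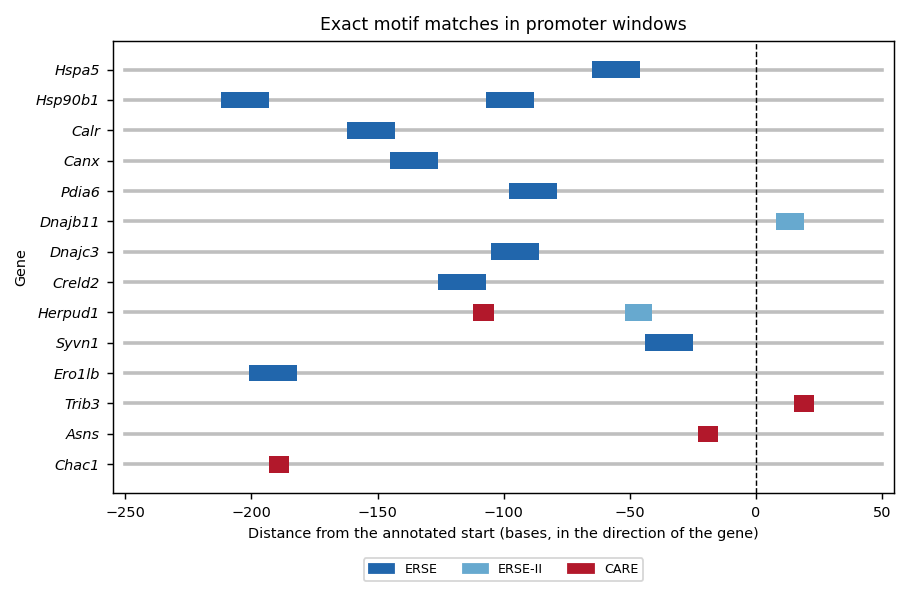
Exact motif matches in the promoter windows of the 14 members that held one; the x axis is the distance in bases from the annotated start, grey lines are the windows, and coloured boxes are the ERSE, ERSE-II and CARE matches. ERSE boxes lie in chaperone genes, Syvn1 and Ero1lb, and CARE boxes in Trib3, Asns, Chac1 and Herpud1.

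The libraries had total counts that ran from 16161127 to 18194889 in S273A and from 14880239 to 17266209 in WT. Adipocyte markers were the most abundant of the marker lists, with summed levels of 6709 to 8821 CPM (counts scaled to a common library size) in S273A and 5707 to 9104 CPM in WT, and none of the 8 was at 0. Epididymis markers summed to at most 1.34 CPM in S273A and 0.356 CPM in WT, with Lcn8, Lcn9, Spint4 and Spag11b at 0 in every library. The 8 mesothelial markers had 8 positive estimates, with sums of 175 to 242 CPM in S273A and 122 to 197 CPM in WT, and the 6 T cell markers had 6 negative estimates. Of the 8 red blood cell markers listed, 5 were tested and 5 had positive estimates (median log2 fold change 0.90), with sums of 61.1 to 137 CPM in S273A and 55.9 to 84.6 CPM in WT. The 6 endothelial markers had 6 positive estimates, with sums of 606 to 803 CPM in S273A and 533 to 747 CPM in WT. The 7 macrophage markers with a row had 6 negative estimates (median log2 fold change -0.12), with sums of 2795 to 3206 CPM in S273A and 3024 to 3552 CPM in WT. Of the 7 B and plasma cell markers with a row, 4 estimates were positive and 3 negative. None of these markers passed the adjusted threshold in edgeR. An unadjusted p under 0.05 was found for 1 mesothelial, 1 red blood cell and 1 B or plasma cell marker. Every pair of libraries differed by more than sampling noise, with a chi-square of at least 5.83 per degree of freedom. Levels below are CPM after TMM scaling, which corrects library size for differences in composition, with mean ± SD over 4 libraries. Levels are compared between genes only as RPKM, the same values divided by the length in kilobases that the authors' table gives for each row.

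Per length, the 6 most abundant members were chaperone genes and the 5 least abundant were ATF4 targets, while the ATF4 targets Phgdh (42.9 ± 11.2 RPKM) and Psat1 (37.3 ± 5.03 RPKM) stood in the middle. Hspa5 averaged 267 ± 24.6 RPKM over the 8 libraries, followed by the calcium-binding lectin-type chaperone Calr (189 ± 11.4 RPKM), the disulfide isomerase and prolyl hydroxylase subunit P4hb (168 ± 11.2 RPKM) and Canx, the membrane-bound relative of Calr (129 ± 3.62 RPKM; SD, n = 8 each). Canx and the ER paralogue of HSP90, Hsp90b1 (122 ± 8.63 RPKM), did not differ beyond their spread. The lowest were Sesn2 (6.19 ± 0.942 RPKM), Ddit3 (5.16 ± 0.314 RPKM), Ppp1r15a (4.86 ± 0.342 RPKM), Chac1 (4.59 ± 1.05 RPKM) and Trib3 (4.38 ± 0.788 RPKM), and the last 4 of these lay within each other's spread. Among the sensors, Atf6 stood at 15.2 ± 0.586 RPKM, Ern1 at 12.0 ± 0.883 RPKM and Eif2ak3 at 11.7 ± 0.711 RPKM (SD, n = 8 each), so Ern1 and Eif2ak3 did not differ beyond their spread. The row of Ddit3 has a length of 4186 bases and GENCODE M21 lists 2 overlapping Ddit3 genes, so its level per length is uncertain. Row lengths also differ from the exon bases in GENCODE M21, among others for Sesn2 (6302 against 3475) and Ern1 (4561 against 8173). The place of Sesn2 among the lowest and the nearness of Ern1 to Eif2ak3 therefore depend on the length used.

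The comparison of S273A with WT asks whether these genes differ in the depot when this serine cannot be phosphorylated. None of the 37 members passed edgeR's quasi-likelihood test with Benjamini-Hochberg adjustment over all 15667 rows, and 0 of the 15667 rows passed (0%; 229 had an unadjusted p under 0.05). DESeq2 called 1 row and limma-voom 0. The adjusted p was 1.00 for every member. DESeq2 and limma-voom also called 0 members, and 0 members had an unadjusted p under 0.05 in any of these tools, against 1.46% of all tested rows in edgeR. The median log2 fold change of the members was 0.004, with 19 positive estimates and 18 negative ones, beside 50.7% positive and a median of 0.001 over all tested rows. The estimates ran from -0.10 for Ero1l to 0.21 for Manf. The 95% confidence intervals give the differences compatible with the spread between these libraries. For 28 of the 37 members the whole interval lay within 0.32 of 0 on the log2 scale. The farthest bounds were a ratio of 0.663 for Phgdh and of 1.47 for Creld2.

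**Figure D2:**
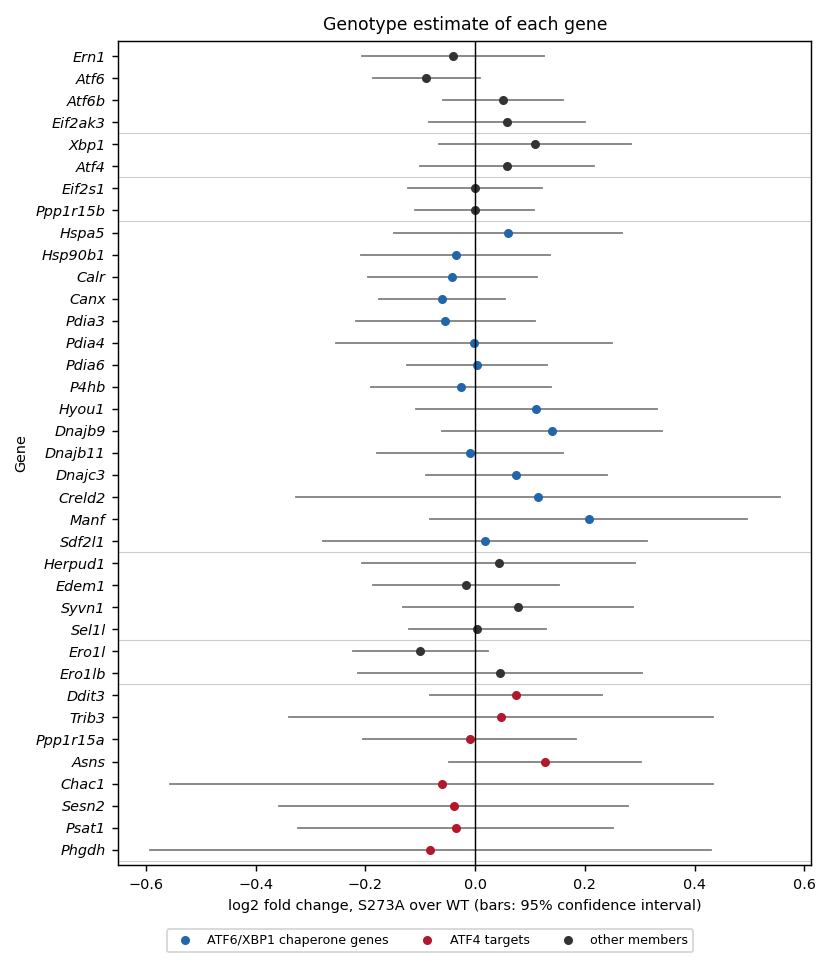
Log2 fold change of each of the 37 genes (S273A over WT, x axis), with points for the estimates and bars for 95% confidence intervals from edgeR; genes run down the page by role, and colour marks the chaperone genes and the ATF4 targets. Every interval includes 0, and the widest belong to Phgdh, Chac1 and Creld2.

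The sensors had nearly equal levels in the genotypes. Atf6, the precursor of a transcription factor, had 140.4, 140.8, 135.7 and 141.1 CPM in S273A libraries, against 147.0, 153.4, 147.8 and 145.2 CPM in WT libraries. All 4 S273A values lay below all 4 WT values, but the log2 fold change was only -0.09 (SE 0.04; edgeR unadjusted p 0.0686, adjusted p 1.00). Groups that did not overlap were found for 2 of the 37 members, Atf6 and Canx, and for 1.19% of all tested rows. Both were lower in S273A, as were 0.53% of all tested rows; 0 members were without overlap and higher, against 0.657% of all tested rows. Atf6b, the paralogue of Atf6, averaged 55.4 ± 1.75 CPM in S273A and 53.5 ± 1.66 CPM in WT (SD, n = 4 each). Its estimate was 0.05 on the log2 scale. Ern1, the kinase and nuclease that splices Xbp1, had 54.7, 56.5, 48.9 and 54.9 CPM in S273A libraries and 52.5, 62.8, 52.3 and 53.5 CPM in WT libraries. The groups overlapped, and WT replicate 2 stood above the other 7. Eif2ak3 averaged 63.2 ± 3.63 CPM in S273A and 60.7 ± 3.95 CPM in WT.

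Of the transcription factors, Xbp1 had 221, 247, 216 and 203 CPM in S273A libraries and 208, 217, 215 and 181 CPM in WT libraries. S273A replicate 3 was the highest and WT replicate 5 the lowest, and the other 6 libraries lay together; the estimate was 0.11 on the log2 scale (SE 0.08), with a 95% interval from -0.07 to 0.28. Atf4 averaged 86.2 ± 6.07 CPM in S273A and 82.9 ± 6.26 CPM in WT. Eif2s1, which encodes eIF2 alpha, was at 49.5 ± 2.91 CPM in S273A and 49.5 ± 0.541 CPM in WT. Ppp1r15b, the constant regulatory subunit of the phosphatase that removes the phosphate from eIF2 alpha, was at 177 ± 6.37 CPM in S273A and 177 ± 5.57 CPM in WT. Its stress-induced counterpart Ppp1r15a was at 14.2 ± 1.24 CPM in S273A and 14.3 ± 0.896 CPM in WT (SD, n = 4 each). The 95% intervals of the log2 fold change stayed between -0.20 and 0.23 for Ppp1r15a, Ppp1r15b, Eif2s1, Atf4 and Ddit3.

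The 15 chaperone genes had 8 positive and 7 negative estimates and a median log2 fold change of 0.004. Hspa5 had 617, 785, 760 and 687 CPM in S273A libraries, against 679, 736, 714 and 604 CPM in WT libraries. The groups overlapped, with S273A replicates 3 and 4 above every WT library and WT replicate 5 the lowest. Its means were 712 ± 75.7 CPM in S273A and 683 ± 58.0 CPM in WT (SD, n = 4 each), at a log2 fold change of 0.06 (SE 0.09). Hsp90b1 averaged 503 ± 43.6 CPM in S273A and 516 ± 31.8 CPM in WT, and Calr 362 ± 28.1 CPM in S273A and 372 ± 16.8 CPM in WT. Canx had 540, 546, 547 and 535 CPM in S273A libraries and 548, 579, 560 and 571 CPM in WT libraries. Its groups did not overlap, at a log2 fold change of -0.06 (SE 0.05; edgeR unadjusted p 0.272, adjusted p 1.00).

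The disulfide isomerases, which make and reshuffle disulfide bonds, had overlapping levels in the genotypes. Pdia3, the partner of Calr and Canx, was at 291 ± 24.9 CPM in S273A and 302 ± 15.7 CPM in WT. Pdia4 had 161 ± 19.8 CPM in S273A and 161 ± 21.7 CPM in WT, Pdia6 157 ± 9.27 CPM in S273A and 156 ± 6.13 CPM in WT, and P4hb 423 ± 18.0 CPM in S273A and 431 ± 39.2 CPM in WT (SD, n = 4 each).

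Manf, Creld2 and Sdf2l1 varied most between libraries among the chaperone genes. The first, a secreted factor of the ER lumen, had the highest estimate of all members. It had 43.9, 60.7, 53.8 and 46.6 CPM in S273A libraries, against 43.1, 52.2, 46.5 and 36.0 CPM in WT libraries. The groups overlapped, with S273A replicate 3 highest and WT replicate 5 lowest, and the estimate was 0.21 on the log2 scale (SE 0.13), with a 95% interval from -0.08 to 0.49. Creld2, another secreted ER protein, had 28.9, 41.9, 31.0 and 29.3 CPM in S273A libraries and 31.3, 36.8, 34.1 and 19.0 CPM in WT libraries. The same libraries were at its ends, 2.21-fold apart. Sdf2l1, a subunit of a complex with BiP, ran from 24.5 to 33.6 CPM in S273A and from 23.2 to 34.2 CPM in WT. Hyou1, a nucleotide exchange factor for BiP, averaged 217 ± 20.5 CPM in S273A and 201 ± 25.0 CPM in WT. The J-domain cochaperones were Dnajb9 at 60.3 ± 6.66 CPM in S273A and 54.7 ± 4.78 CPM in WT, Dnajb11 at 42.6 ± 3.84 CPM in S273A and 42.9 ± 2.57 CPM in WT, and Dnajc3 at 220 ± 16.4 CPM in S273A and 209 ± 16.6 CPM in WT (SD, n = 4 each).

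Genes of ER-associated degradation, the export of misfolded proteins to the proteasome, had 3 positive estimates and 1 negative. Herpud1, a scaffold of the export complex, had 91.0, 101, 92.5 and 72.5 CPM in S273A libraries and 89.5, 91.5, 93.5 and 71.9 CPM in WT libraries. S273A replicate 6 and WT replicate 5 were low by about the same amount, and the other 6 libraries lay between 89.5 and 101 CPM. The ubiquitin ligase Syvn1 averaged 86.2 ± 11.03 CPM in S273A and 81.6 ± 6.92 CPM in WT, and its partner Sel1l 355 ± 15.4 CPM in S273A and 354 ± 13.2 CPM in WT. The mannose-trimming protein Edem1 was at 462 ± 35.8 CPM in S273A and 467 ± 33.4 CPM in WT (SD, n = 4 each). Of the ER oxidases, which pass electrons from the disulfide isomerases to oxygen, Ero1l had 43.9, 45.2, 47.2 and 48.7 CPM in S273A libraries and 49.5, 50.6, 46.9 and 51.2 CPM in WT libraries. All but 1 WT library lay above all S273A libraries, and the log2 fold change was -0.10 (SE 0.05; edgeR unadjusted p 0.0987, adjusted p 1.00). Ero1lb, its paralogue, averaged 55.6 ± 6.76 CPM in S273A and 53.9 ± 8.14 CPM in WT.

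The 8 ATF4 targets had 3 positive and 5 negative estimates and a median log2 fold change of -0.02. The medians of the chaperone genes and of the ATF4 targets thus differed by 0.03 on the log2 scale, and both stood beside 0.001 for all tested rows. Asns, asparagine synthetase, had 38.7, 32.4, 36.2 and 30.6 CPM in S273A libraries, against 30.9, 30.9, 32.9 and 31.6 CPM in WT libraries. The WT libraries lay close together, and 2 S273A libraries were above them; the estimate was 0.13 on the log2 scale (SE 0.08), with a 95% interval from -0.05 to 0.30. Phgdh, the first enzyme of serine synthesis, had 116, 64.0, 75.0 and 56.7 CPM in S273A libraries, against 85.7, 58.2, 101 and 86.0 CPM in WT libraries. The S273A group held both its highest and its lowest value, 2.05-fold apart. Psat1, the next enzyme of that pathway, had 111, 92.9, 105 and 99.3 CPM in S273A libraries, against 107, 76.4, 121 and 115 CPM in WT libraries, and WT replicate 2 was the lowest.

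Chac1 had 5.74, 5.68, 8.62 and 8.18 CPM in S273A libraries, against 9.02, 4.83, 8.83 and 6.81 CPM in WT libraries. Trib3, a pseudokinase that restrains Akt and ATF4, ran from 7.87 to 11.3 CPM in S273A and from 6.65 to 10.9 CPM in WT. For both genes WT replicate 2 was the lowest of all 8 libraries. Sesn2, a stress sensor that inhibits mTORC1, averaged 38.5 ± 4.81 CPM in S273A and 39.6 ± 7.63 CPM in WT. Ddit3, the transcription factor CHOP, averaged 22.2 ± 1.52 CPM in S273A and 21.0 ± 0.934 CPM in WT (SD, n = 4 each).

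**Figure D3:**
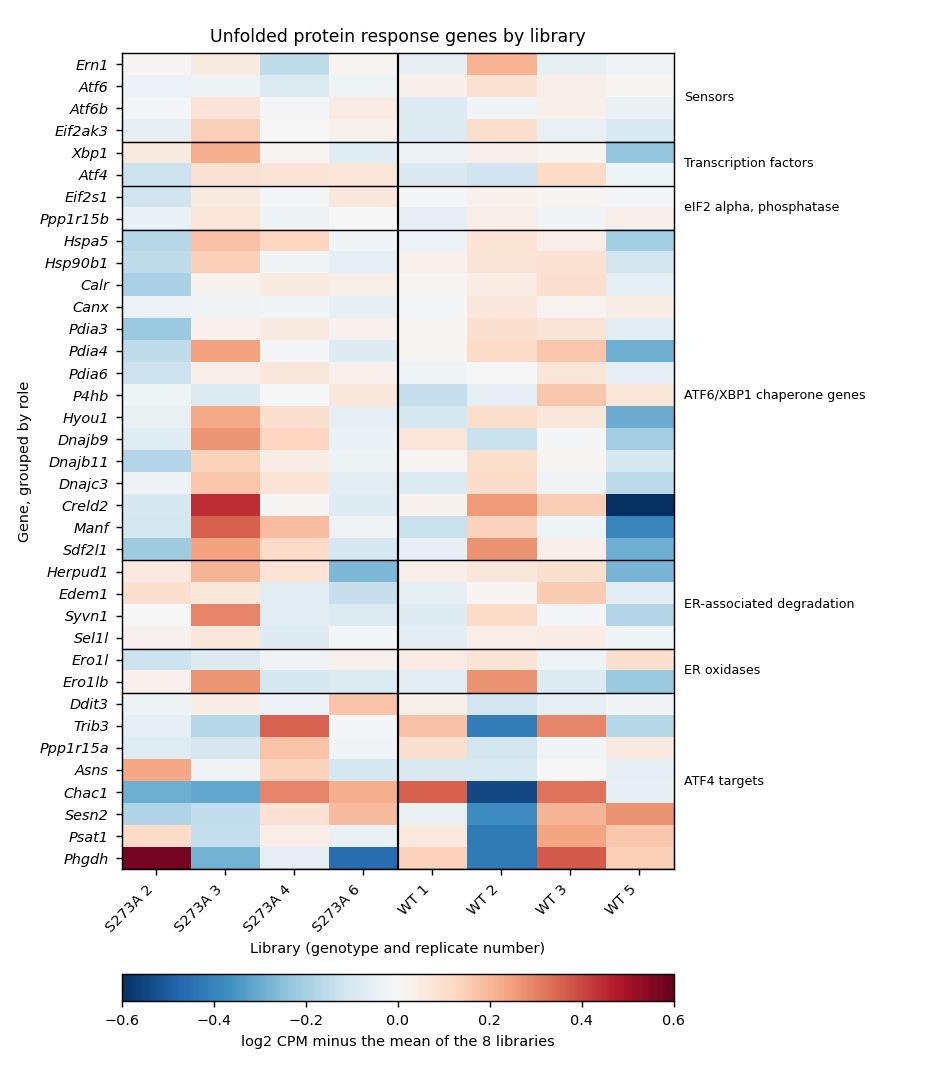
Log2 CPM of each gene minus its mean over the 8 libraries, with S273A libraries left and WT libraries right of the vertical line and genes grouped by role; Creld2 in WT replicate 5 lies past the end of the colour scale. Chaperone genes are high in S273A replicate 3 and low in S273A replicate 2 and WT replicate 5, while 6 of the 8 ATF4 targets have their lowest value in WT replicate 2.

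Between libraries most of the chaperone genes varied together. Of the 15, S273A replicate 3 had 13 above their own mean, S273A replicate 2 had 0, WT replicate 2 had 13 and WT replicate 5 had 2. The mean deviation of the 15 genes, the chaperone score, was -0.12, 0.16, 0.06 and -0.03 in S273A libraries and -0.03, 0.09, 0.06 and -0.19 in WT libraries, in order of replicate number. The highest and lowest scores fell in different genotypes, and each genotype spanned most of the range.

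Over the 8 libraries, log2 CPM of the 105 pairs of chaperone genes had a median Pearson's r of 0.67, and 50 pairs were above 0.7. The median over all pairs of tested rows was -0.001, with 4.6% of pairs above 0.7, and it was also -0.001, with 6.76% above, for the 6504 rows with an average log2 CPM of at least 5. All genes of a library share its depth and tissue makeup, and total counts and marker sums differed between libraries. Genes are therefore not independent replicates. Hspa5 was closest to Sdf2l1 (r = 0.94), Dnajb11 (0.93), Manf (0.92) and Hyou1 (0.90). Canx (r = -0.05) and P4hb (-0.22) did not follow Hspa5. Canx has an exact ERSE in its window and P4hb has none. Without S273A replicate 3 and WT replicate 5, the libraries with the extreme scores, the median was 0.60 over 6 libraries, and with values centred within each genotype it was 0.73. Of the regulators, Eif2ak3 (0.75) and Xbp1 (0.70) had the highest r with Hspa5, followed by Eif2s1 (0.61) and Atf4 (0.52), while Atf6 (-0.08) and Ern1 (0.09) were near 0. The r of Atf4 ran from -0.28 (Canx) to 0.81 (Pdia6) with the chaperone genes. With the ATF4 targets it ran from -0.22 (Phgdh) to 0.60 (Sesn2), so Atf4 did not follow its targets more closely than the chaperone genes.

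**Figure D4:**
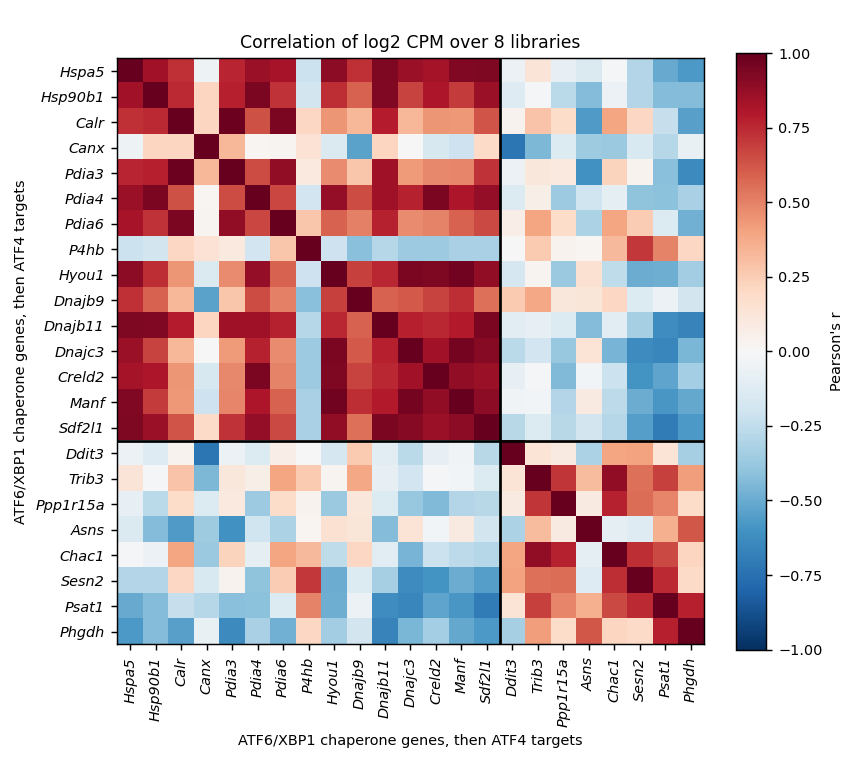
Pearson's r of log2 CPM over the 8 libraries for the 15 chaperone genes and the 8 ATF4 targets (same order on both axes; black lines part the lists). The chaperone block is red except for the rows of Canx and P4hb, the ATF4 block is mixed, and the off-diagonal block has a median of -0.17.

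The ATF4 targets followed another order of libraries. Their 28 pairs had a median r of 0.40, with Trib3 and Chac1 (0.89) and Psat1 and Phgdh (0.78) the closest, and the 120 pairs of a chaperone gene with an ATF4 target had a median of -0.17. The ATF4 value rested on 1 library: without WT replicate 2 the median within the targets was 0.18 and that between the lists -0.04. The ATF4 target score was 0.04, -0.14, 0.12 and -0.01 in S273A libraries and 0.09, -0.31, 0.17 and 0.04 in WT libraries. S273A replicate 3 and WT replicate 2, the libraries with the highest chaperone scores, had the lowest ATF4 target scores. The chaperone score minus the ATF4 target score ran from -0.16 to 0.30 in S273A and from -0.23 to 0.39 in WT, so the ranges overlapped.

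Some marker lists of cells in the depot had their highest or lowest libraries in common with these scores, and others did not. The 7 B and plasma cell markers with a row (of 8 listed; none at 0) summed to 64.1, 205, 82.3 and 122 CPM in S273A libraries and 110, 168, 111 and 68.8 CPM in WT libraries. S273A replicate 3 and WT replicate 2 were the highest in both this sum and the chaperone score, and S273A replicate 2 and WT replicate 5 the lowest in both; S273A replicate 4 was low in the sum and above 0 in the score. The 6 T cell markers, none at 0, summed to 39.6, 77.5, 36.6 and 43.0 CPM in S273A libraries and 75.6, 70.9, 55.3 and 27.3 CPM in WT libraries. S273A replicate 3 was the highest and WT replicate 5 the lowest in both the T cell sum and the chaperone score. These ends were thus not particular to B and plasma cell markers. WT replicate 1 was high in the T cell sum and below 0 in the score. The 8 adipocyte markers summed to 8124, 6709, 8821 and 7506 CPM in S273A libraries and 8045, 5707, 9104 and 8200 CPM in WT libraries. S273A replicate 3 and WT replicate 2 were the lowest in both this sum and the ATF4 target score, and S273A replicate 4 and WT replicate 3 the highest in both. The low end was not particular to adipocyte markers. The endothelial sums were also lowest in S273A replicate 3 (606 CPM) and WT replicate 2 (533 CPM), though highest in S273A replicate 6 (803 CPM). Mesothelial sums were highest in S273A replicate 4 (242 CPM) and lowest in WT replicate 3 (122 CPM), which had equal chaperone scores (0.06). Macrophage sums were highest in WT replicate 2 (3552 CPM) and lowest in S273A replicate 4 (2795 CPM). Fibroblast and progenitor sums were highest in S273A replicate 6 (5947 CPM) and lowest in S273A replicate 3 (4301 CPM). Of the markers of pancreatic acinar cells, which have a large ER, 7 of 8 had a row, Pnlip and Amy2a5 were at 0 and only Cela1 passed the filter on low counts. The sums, 26.4 to 39.3 CPM in S273A and 26.7 to 40.1 CPM in WT, were nearly all Cela1, which averaged 33.6 CPM in S273A and 34.5 CPM in WT. The part of the cell makeup in either pattern was not tested, and in whole tissue fewer cells of a type and less RNA per cell cannot be told apart.

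**Figure D5:**
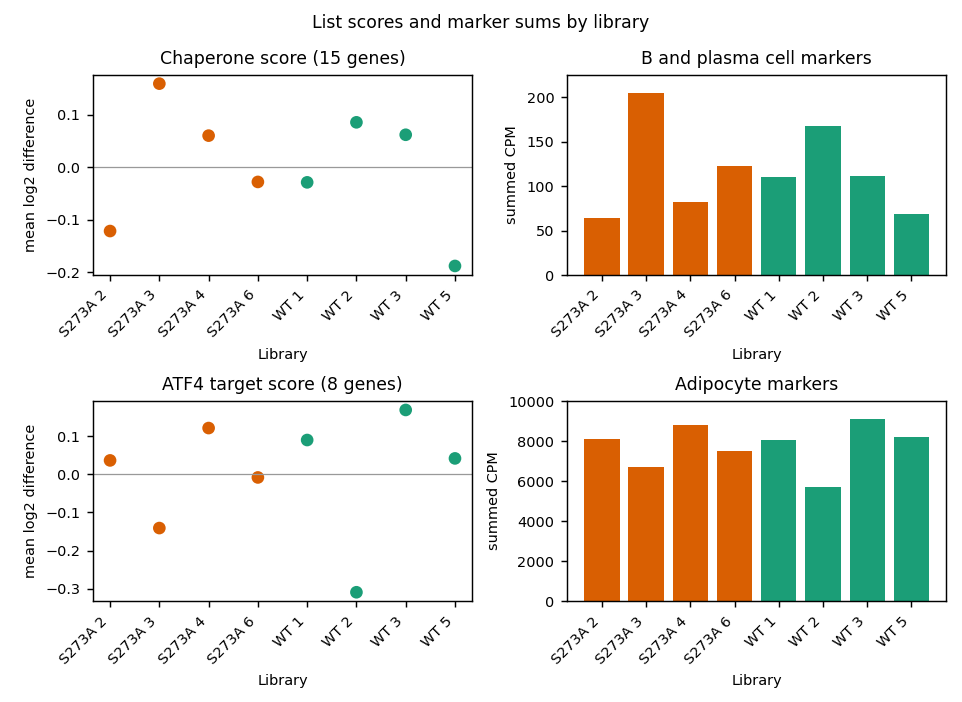
Chaperone score and ATF4 target score (left, mean log2 difference from each gene's mean) beside the summed CPM of B and plasma cell markers and of adipocyte markers (right), with 1 point or bar per library, S273A (orange) left of WT (green). S273A replicate 3 and WT replicate 2 have the highest chaperone scores (0.16 and 0.09) and B and plasma cell sums (205 and 168 CPM), and the lowest ATF4 target scores and adipocyte sums.

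The spread between libraries set the precision of the genotype estimates. The coefficient of variation over the 8 libraries had a median of 7.66% for the chaperone genes and 14.4% for the ATF4 targets, beside 10.3% for all tested rows. It was largest for Phgdh (26.2%), Chac1 (22.9%) and Creld2 (21.2%). Counting alone would give 2.72% for Phgdh, 9.09% for Chac1 and 4.33% for Creld2, less than the spread observed. It was smallest for Canx (2.80%), Ppp1r15b (3.13%) and Atf6b (3.46%).

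Other genes of the pathway were read from 5 further lists, with 0 called higher and 0 called lower in each list by edgeR and 0 at an unadjusted p under 0.05. Of 25 further ATF4 targets tested, 12 estimates were positive and 13 negative (median log2 fold change -0.009). The smallest p belonged to Gdf15, a stress-induced hormone, at 52.2, 25.6, 15.6 and 19.4 CPM in S273A libraries and 22.7, 24.3, 21.3 and 18.6 CPM in WT libraries, where S273A replicate 2 alone stood apart. Pycr1, an enzyme of proline synthesis, was at 4.41 ± 0.970 CPM in S273A and 5.03 ± 0.456 CPM in WT, and Stc2, a secreted glycoprotein, at 12.4 ± 3.57 CPM in S273A and 10.8 ± 1.64 CPM in WT. S273A replicate 2 was also the highest library for Stc2, Phgdh and Asns, but the lowest for Pycr1 (3.12 CPM) and for Atf4 itself (77.1 CPM).

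Of 24 other folding and glycosylation genes, 9 estimates were positive and 15 negative (median -0.007). Uggt1, the glucosyltransferase that tests the fold of glycoproteins, was at 172 ± 4.35 CPM in S273A and 182 ± 10.2 CPM in WT, and the glucosidase subunit Ganab at 208 ± 8.21 CPM in S273A and 217 ± 11.1 CPM in WT. The proline isomerase Fkbp2 was at 6.51 ± 0.476 CPM in S273A and 5.98 ± 0.372 CPM in WT. Translocon and export genes had 15 positive and 6 negative estimates of 21 (median 0.02). Srp19, a signal recognition particle subunit, was at 12.7 ± 0.795 CPM in S273A and 14.4 ± 1.24 CPM in WT (log2 fold change -0.18, edgeR unadjusted p 0.0739, adjusted p 1.00). Ssr4, a translocon-associated protein, was at 36.98 ± 1.37 CPM in S273A and 34.7 ± 1.68 CPM in WT, and the channel subunit Sec61g at 2.2 ± 0.335 CPM in S273A and 1.95 ± 0.318 CPM in WT.

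The 17 other genes of ER-associated degradation had 9 positive and 8 negative estimates (median 0.01). The conjugating enzyme Ube2j1 was at 112 ± 4.07 CPM in S273A and 118 ± 2.88 CPM in WT, the extracting ATPase Vcp at 130 ± 1.22 CPM in S273A and 136 ± 8.37 CPM in WT, and Herpud2 at 103 ± 4.39 CPM in S273A and 98.4 ± 6.09 CPM in WT (SD, n = 4 each). The 17 other regulators had 7 positive and 10 negative estimates (median -0.007). Subunits of the exchange factor for eIF2 were at 18.6 ± 1.80 CPM in S273A and 17.0 ± 0.389 CPM in WT for Eif2b3, and at 17.7 ± 0.754 CPM in S273A and 16.9 ± 1.13 CPM in WT for Eif2b4. Creb3l1, a relative of ATF6, was at 22.3 ± 2.62 CPM in S273A and 20.5 ± 1.07 CPM in WT.

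Most members were free of overlapping genes. In GENCODE M21 on GRCm38, 36 members had a single position, and 26 of these shared no exon bases with another gene. Hspa5 (chr2:34771970-34777547, plus strand), Atf6 (chr1:170704674-170867771, minus strand) and Xbp1 (chr11:5520659-5525893, plus strand) are among those that share none. The largest shares were 15.7% of the exon bases of Hsp90b1, 11.4% of Ppp1r15b, 9.25% of Manf and 8.05% of Eif2ak3. The libraries do not mark strand, so strand cannot assign reads from stretches shared with a gene on the other strand. Hsp90b1 and Manf also share bases with genes on their own strand. How the authors' counting treated such reads is not known, and the values of the 4 genes are uncertain to that extent.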

How the data were processed

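RNA of epididymal white adipose tissue was sequenced in 8 libraries. Libraries started from 400 ng of RNA, per the labels' protocols; ribosomal RNA was removed and cDNA was made without strand marking, tagmented, amplified for 12 cycles and read as pairs of 36 bases. The authors deposited whole-number read counts per row, not normalised. The build was mm10 and the tools, whose order is not stated, included featureCounts 1.5.2 and HISAT2 2.0.5 beside edgeR 3.3.0, bcl2fastq 2.20.0 and Picard 2.9.2, per the submitters' processing notes. For the annotation and duplicate handling, details were not given in the sources used here. Another deposited column holds row lengths in bases, used only for RPKM.

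Counts were tested with edgeR 4.0.16 in R 4.3.3: filterByExpr (count of about 10 in at least 4 libraries, total of 15), TMM, estimateDisp, robust glmQLFit and glmQLFTest, S273A over WT, with no covariate, and Benjamini-Hochberg adjustment over all 15667 rows at a threshold of 0.05. Scores and correlations used log2 CPM with a prior count of 2. DESeq2 1.42.0, limma 3.58.1 (voom), other scalings, no filter, summed rows, a replicate block and leaving out each library were alternatives. Members, lists and tests were chosen with earlier results of these data known. Named genes were all 37 members and, of each further pathway list, the 3 with the smallest unadjusted p; 4 listed pathway genes had no matching row (Cebpb, Rpn2, Spcs1, Creb3). Replicate numbers come from the sample titles and the genotype from the genotype label.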

Additional observations from a re-analysis of the deposited data

Results flagged for a closer look

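Within a genotype, a library was set apart where its gap to the nearest other library, divided by the range of the 4, exceeded Dixon's 95% critical value. In 100 groups of 4 examined, 7 were set apart, where chance gives about 5. S273A replicate 2 was low for Atf4 (77.1 CPM, against 88.7 to 89.7 in the other S273A libraries), Calr (320 CPM, against 371 to 380) and Pdia3 (254 CPM, against 302 to 307). S273A replicate 4 was low for Atf6 (136 CPM, against 140 to 141), and S273A replicate 3 was high for Creld2 (41.9 CPM, against 28.9 to 31.0) and for the sum of T cell markers (77.5 CPM, against 36.6 to 43.0). WT replicate 2 was high for Ern1 (62.8 CPM, against 52.3 to 53.5 in the other WT libraries).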

How the results depend on the processing

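No member was called in any of the 15 alternatives, and the smallest adjusted p of a member in any of them was 0.999. DESeq2 called 1 of all rows, and leaving out a library gave between 0 and 1 called rows; neither was a member. An unadjusted p under 0.05 was found for 229 rows in the reported test, 374 with no filter on low counts and 94 with the replicate block, and for 1 member without S273A replicate 6 and 1 without WT replicate 2. The median of the chaperone genes ran from -0.05 to 0.05 and that of the ATF4 targets from -0.11 to 0.04 when 1 library was left out, and their difference from -0.05 to 0.15, so its sign turned on single libraries: it was -0.05 without S273A replicate 3 or WT replicate 5, -0.04 without WT replicate 1, -0.008 without WT replicate 3 and 0.15 without WT replicate 2. Of the 555 values of single members over the alternatives, 87 had another sign than in the reported test, and 12 members kept 1 sign throughout, among them Atf6, Canx, Xbp1, Manf, Asns and Ero1l. The genotypes share the replicate numbers 2 and 3 only. Deviations of libraries with the same number had correlations of -0.08 and -0.22, so the numbers were not taken as pairs; with the replicate number as a block (1 residual degree of freedom) 0 rows and 0 members were called, the chaperone median was -0.08, the ATF4 target median 0.03 and their difference -0.11. Correlations under other scalings, with libraries left out and within genotypes were added after seeing the data. The median within the chaperone genes stayed between 0.60 and 0.74, and that within the ATF4 targets ran from 0.11, without WT replicates 2 and 3, to 0.53, without S273A replicate 2. With 4 libraries per genotype, differences inside the stated intervals remain compatible with the data. The intervals are not adjusted for the number of rows, and the smallest difference that could have been called was not computed.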
